A study of Homo sapiens with 2 samples.

Results

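Receptor tyrosine kinases are membrane proteins that bind a growth factor outside the cell and phosphorylate tyrosines inside it. KIT, the receptor of this kind best known from seminoma, was described here together with the other receptors of the class in TCam-2 cells that overexpressed DDX53. The set was a list of 57 receptor genes chosen by symbol, with earlier results of these data known, out of 62700 genes in the gene table. Each symbol matched 1 gene of that table. TCam-2 is an established human testicular cancer cell line of the seminoma type. The cells had been transduced with FLAG-tagged DDX53, a DEAD-box RNA helicase, and polyadenylated RNA was sequenced in a strand-specific protocol from 2 replicate libraries, the only group analysed. The control cells that the design names, untransduced or transduced with GFP-FLAG, were not analysed here, so no effect of DDX53 is given, and the labels give neither the promoter of the construct nor whether the cells were a pool or a clone. The question was therefore which receptors, ligands and splice forms the transduced cells expressed, how far the libraries differed, and where the 2 deposited tables disagreed. The labels do not say that the replicates came from separate cultures, so the spread between them may be technical.

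A ligand usually brings a pair of receptor molecules together, their kinase domains phosphorylate each other, and adaptors such as GRB2 pass the signal to RAS and the MAP kinases or to PI3 kinase and AKT. KIT and its ligand, encoded by KITLG, are required for the migration and survival of primordial germ cells, and KIT is a standard marker of seminoma. Several of these receptors are made in splice forms that differ in ligand binding.

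The receptor genes took 0.205% of 24137664 reads in replicate 1 and 0.208% of 22198929 reads in replicate 2. Levels are given as CPM, the reads of a gene relative to all reads in genes, and for comparison between genes as length-scaled CPM, in which reads per kilobase of merged exons are scaled to the sum of CPM. Detection meant that both libraries reached 1 CPM. A gene without a read could still hold up to 3 reads, or 0.124 CPM in replicate 1 and 0.135 CPM in replicate 2, and such limits and the 95% Wilson intervals below cover counting error only. DDX53 itself stood at 6.05 CPM in replicate 1 and 6.62 CPM in replicate 2, which cannot be set against controls here. All 7 seminoma markers were detected, among them the transcription factor genes POU5F1 (1891 and 1921 CPM in replicates 1 and 2), TFAP2C (1255 and 1247 CPM), NANOG (705 and 691 CPM), SOX17 (143 and 146 CPM) and PRDM1 (95.8 and 84.1 CPM), and PDPN (494 and 512 CPM). Of the embryonal carcinoma markers, SOX2 had 24 reads in each library, TNFRSF8 had 59 and 29 reads, and DNMT3B stood at 124 and 98.4 CPM.

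The splice forms on which later results turn are told apart here by short stretches of sequence, read from GRCh38. The annotated transcripts that stand for the KIT and INSR forms also differ elsewhere. KIT-201 has 5186 bases and KIT-202 has 3470, and INSR-201 has 4721 and INSR-202 has 8954. KIT-201 carries 12 bases at the end of exon 9, chr4:54726039-54726050 on the plus strand, that encode the residues GNNK in the extracellular part, and KIT-202 lacks them. The stretch is shown with and without the 12 bases, which stand in capitals.
KIT-201: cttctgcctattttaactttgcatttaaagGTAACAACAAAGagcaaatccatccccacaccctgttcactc
KIT-202: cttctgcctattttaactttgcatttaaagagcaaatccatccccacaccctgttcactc
The insulin receptor transcript INSR-201 contains exon 11 of 36 bases, chr19:7150497-7150532 on the minus strand, and INSR-202 skips it. The 36 bases are in capitals, with the flanking exons in lower case.
INSR-201: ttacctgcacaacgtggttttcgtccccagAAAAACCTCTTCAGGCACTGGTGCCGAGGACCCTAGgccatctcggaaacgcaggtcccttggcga
FGFR1, FGFR2 and FGFR3 use either of a pair of exons, IIIb or IIIc, for the second part of the immunoglobulin-like domain that contacts the FGF. The exons of FGFR3 (plus strand, IIIb at chr4:1802914-1803064 and IIIc at chr4:1803692-1803836) are shown whole. FGFR3 was the highest receptor in length-scaled CPM, and its transcripts differed in which of these exons they carry.
FGFR3 IIIb: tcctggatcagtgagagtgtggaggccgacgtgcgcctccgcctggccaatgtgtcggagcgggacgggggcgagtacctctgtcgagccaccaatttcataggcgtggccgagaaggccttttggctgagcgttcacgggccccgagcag
FGFR3 IIIc: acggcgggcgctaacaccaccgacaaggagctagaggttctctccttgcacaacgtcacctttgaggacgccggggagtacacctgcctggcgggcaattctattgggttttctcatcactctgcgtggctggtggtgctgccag
When aligned, the IIIb and IIIc exons of FGFR3 shared 75 identical bases (49.7%).

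Of the 57 receptor genes, 40 (70.2%) were detected, beside 61.7% of 19831 protein-coding genes and 21.7% of all genes in the table. The detected receptors included all 4 FGF receptors, all 3 TAM receptors (TYRO3, AXL and MERTK), all 5 ephrin-B receptors, 3 of 4 ERBB receptors and KIT. No read was counted in either library for ROS1, INSRR, MUSK and EPHA5, and the other 13 genes that were not detected had reads below the threshold in at least 1 library. At the threshold, AATK was just inside with 1.28 and 1.17 CPM in replicates 1 and 2, and PDGFRB just outside with 1.28 and 0.811 CPM, followed by EPHA8 with 0.746 and 0.721 CPM. In RNA from whole cultures, fewer expressing cells and less RNA per cell cannot be told apart.

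**Figure D1:**
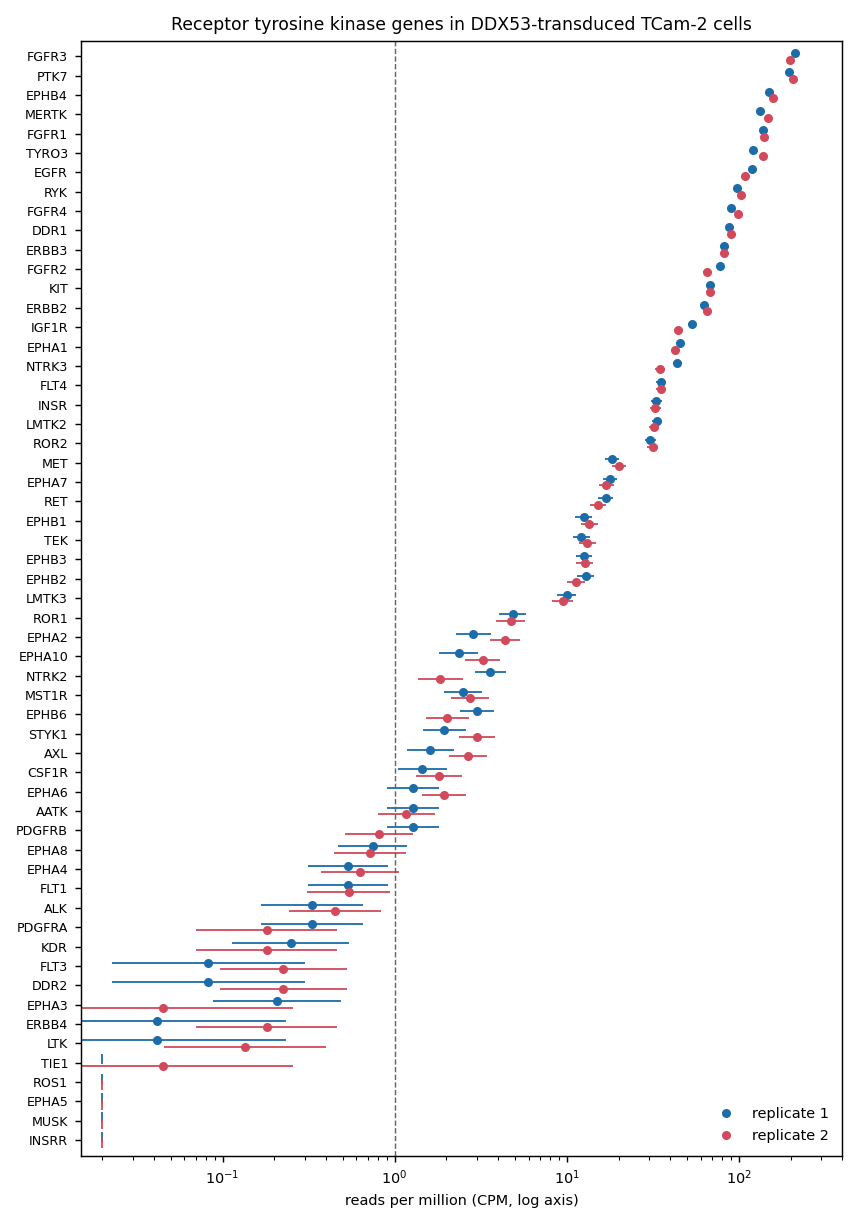
CPM of each of the 57 receptor genes in replicate 1 (blue) and replicate 2 (red) on a log axis, ordered by mean CPM, with 95% Wilson intervals for counting error and a dashed line at 1 CPM; ticks at the left edge mark libraries with no read. FGFR3 and PTK7 are the highest, KIT lies at 67.7 and 68.1 CPM, and 28 genes reach 10 CPM in both libraries, with LMTK3 at 10.0 and 9.46 CPM just below them.

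On the length-scaled scale, FGFR3 was the highest receptor. This place depended on the length used. By the longest coding transcript, and by transcript abundance (TPM, described below), PTK7 ranked 1 and FGFR3 ranked 2. The FGF receptors together held 29.6% and 28.3% of the summed length-scaled level of all 57 genes in replicates 1 and 2. The WNT-binding receptors (PTK7, RYK, ROR1, ROR2 and MUSK) held 14.3% and 14.8%, the TAM receptors 14.2% and 15.7%, the ephrin-B receptors 10.5% and 10.8%, and the ERBB receptors 8.84% and 8.49%. KIT, PDGFRA, PDGFRB, CSF1R and FLT3 together held 4.55% and 4.49%, nearly all of it KIT. The 7 highest receptors, in the order FGFR3, MERTK, EPHB4, PTK7, FGFR4, RYK and KIT, held 57.3% and 58.3%. The median length-scaled level of the detected receptors was 11.4, against 21.0 for detected protein-coding genes. Of 38 pairs of neighbours in the order of all 57 genes with both detected, 18 did not overlap between libraries and 20 did. Much of the order lower down was thus within the spread of the libraries. NTRK2, detected but ranked next to genes that were not, was in no pair.

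KIT (ENSG00000157404.17, chr4:54657918-54740715 on the plus strand) received 1635 reads in replicate 1 and 1511 reads in replicate 2. These were 67.7 CPM (interval 64.5 to 71.1) and 68.1 CPM (interval 64.7 to 71.6), or 67.9 ± 0.233 CPM (SD, n = 2). Its length-scaled level was 47.1 and 46.8, higher than that of 71.3% of detected protein-coding genes. On this scale, KIT did not differ in level from its neighbours in the order, RYK and TYRO3, beyond the spread of the libraries. FGFR4 above them stood apart. These places depended on the scale used. By the longest coding transcript RYK ranked 5, FGFR4 6, TYRO3 10 and KIT 14. By TPM they ranked 6, 7, 3 and 23. The other receptors of its family are PDGFRA and PDGFRB, which bind platelet-derived growth factors, CSF1R, which binds CSF1 and interleukin 34 and is known from macrophages, and FLT3 of blood progenitors. PDGFRA had 8 and 4 reads, FLT3 had 2 and 5, and CSF1R stood at 1.45 and 1.80 CPM. PDGFRA and KDR, the genes that flank KIT on chromosome 4 (chr4:54229097-54298247 and chr4:55078259-55125595), thus contrasted with it: KDR, a receptor for VEGF, had 6 and 4 reads. Of the merged exons of PDGFRA, 15.8% overlap another gene on the same strand, and reads there may not have been counted for it.

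FGF receptors signal with heparan sulfate or Klotho proteins as cofactors. FGFR3 (ENSG00000068078.20, chr4:1793293-1808872, plus strand) stood at 212 CPM in replicate 1 and 199 CPM in replicate 2, with a length-scaled level of 163 ± 8.27 (SD, n = 2), higher than 91.6% of detected protein-coding genes. FGFR4 stood at 90.4 and 99.3 CPM, FGFR1 at 139 and 141 CPM, and FGFR2 at 77.6 and 65.5 CPM. On the length-scaled scale the order was FGFR3, FGFR4, FGFR1 and FGFR2. Their levels of 163, 75.5, 38.8 and 36.3 placed FGFR1 and FGFR2 side by side on that scale, where FGFR2 was the more variable of the pair. By TPM they were further apart, at means of 38.8 for FGFR1 and 17.2 for FGFR2.

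The TAM receptors bind GAS6 and protein S and are known for the uptake of dying cells, a task of Sertoli cells in the testis. MERTK stood at 133 CPM in replicate 1 and 148 CPM in replicate 2, and TYRO3 at 121 and 138 CPM. AXL was far lower, at 1.62 and 2.66 CPM. PTK7 and RYK lack an active kinase and take part in WNT signalling, and both were among the highest receptors, PTK7 at 196 and 208 CPM and RYK at 97.9 and 103 CPM. ROR2, which binds WNT5A, stood at 30.6 and 31.5 CPM, and the related ROR1 at 4.85 and 4.73 CPM.

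Ephrin receptors read ligands fixed to the surface of neighbouring cells. EPHB4 was the highest of the 14 at 149 CPM in replicate 1 and 159 CPM in replicate 2, followed in length-scaled level by EPHA1 at 45.5 and 42.8 CPM. EPHB3 (12.6 and 12.7 CPM), EPHB1 (12.6 and 13.6 CPM), EPHB2 (12.9 and 11.4 CPM) and EPHA7 (17.9 and 17.0 CPM) formed a middle group in CPM. EPHA2 (2.86 and 4.37 CPM), EPHB6 (3.02 and 2.03 CPM), EPHA10 (2.36 and 3.24 CPM) and EPHA6 (1.28 and 1.94 CPM) were low. In length-scaled level, however, EPHB2 (3.98 and 3.47) overlapped EPHA2 (2.66 and 4.02). EPHB6 and EPHA10 encode receptors without an active kinase. EPHA4 (0.539 and 0.631 CPM), EPHA8 and EPHA3 (5 and 1 reads) were not detected.

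Of the ERBB receptors, EGFR and ERBB3 had the highest length-scaled levels, at 120 and 109 CPM for EGFR and 81.5 and 82.0 CPM for ERBB3. ERBB2, which has no ligand of its own and pairs with the other ERBB receptors, stood at 62.8 and 65.3 CPM. The order depended on the length used. By the longest coding transcript and by TPM, EGFR ranked 15 among the receptors, below ERBB3 (11 and 11) and ERBB2 (12 and 10). ERBB4, a neuregulin receptor, had 1 and 4 reads. The insulin-like growth factor receptor IGF1R stood at 53.2 and 44.5 CPM and the insulin receptor INSR at 33.2 and 32.7 CPM. Their length-scaled levels, 13.5 for IGF1R and 12.1 for INSR, overlapped between libraries.

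Most other receptors were at intermediate or low levels. The collagen receptor DDR1 stood at 88.2 and 90.7 CPM, whereas DDR2 had 2 and 5 reads. FLT4, the receptor for VEGFC, was detected at 35.3 and 35.2 CPM, whereas FLT1 (0.539 and 0.541 CPM) and KDR, the other VEGF receptors, were not. LMTK2 (33.4 and 32.2 CPM) was the highest of the lemur kinases, a group with poorly known ligands, above LMTK3 and AATK. The hepatocyte growth factor receptor MET stood at 18.3 and 20.2 CPM and its relative MST1R at 2.49 and 2.75 CPM. TEK, the angiopoietin receptor, stood at 12.2 and 13.2 CPM, while TIE1 had 0 and 1 reads. RET, which needs a GFRA co-receptor, stood at 16.9 and 15.3 CPM. The neurotrophin receptors were NTRK3 at 43.9 and 34.8 CPM and NTRK2 at 3.60 and 1.85 CPM. STYK1 stood at 1.95 and 3.02 CPM, ALK at 0.331 and 0.450 CPM, and LTK had 1 and 3 reads.

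FLT4, TEK and NTRK3 are best known from endothelium and nerve cells, so markers of other cell types were read from the same table. Of 3 endothelial markers, VWF stood at 3.98 and 5.86 CPM and CDH5 at 1.41 and 1.62 CPM, and PECAM1 had 0 and 6 reads. Their summed level was 5.39 and 7.75 CPM, below that of FLT4 alone. Of 3 macrophage and blood markers, PTPRC and CD68 were at 0 reads and CD14 had 10 and 18, a sum of 0.414 and 0.811 CPM beside CSF1R. All 3 fibroblast markers were detected, THY1 at 24.3 and 28.0 CPM, COL3A1 at 8.78 and 14.6 CPM and COL1A1 at 9.28 and 11.2 CPM, for a sum of 42.3 and 53.8 CPM beside a PDGFRA and PDGFRB that were not detected. Of 5 markers of testis somatic cells, GATA4 (39.8 and 38.5 CPM), AMH (6.01 and 5.81 CPM) and SOX9 (7.79 and 4.68 CPM) were detected, and INHA (35 and 19 reads) and STAR (4 and 0 reads) were not, for a sum of 55.2 and 49.9 CPM. Of 3 neuronal markers, RBFOX3 stood at 3.69 and 2.88 CPM, and TUBB3 (18 and 11 reads) and SNAP25 (8 and 6 reads) were not detected, for a sum of 4.76 and 3.65 CPM beside NTRK3. The gene table gives no safe level for TUBB3, whose transcripts summed to 131 and 125 TPM, and the 0 reads of CD68 stand beside 0.0927 and 0.218 TPM. The part of other cell types in the receptor levels was not tested.

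The deposited transcript table gave a different level for KIT. Its values are TPM, the abundance of each transcript corrected for its length, and the reads that a gene's TPM and transcript lengths predict were set against the reads counted. KIT summed to 3.37 TPM in replicate 1 and 5.08 TPM in replicate 2, all of it from KIT-201, the form with the 12 bases. KIT-202, which lacks them, and both other KIT transcripts were listed at 0. The counted reads were 5.74-fold above the prediction in replicate 1 and 3.83-fold above it in replicate 2, or 2.52 and 1.94 on the log2 scale with 0.1 CPM added to both. On the length of KIT-201, 5186 bases, the reads correspond to 19.5 TPM in each library. KIT had a higher ratio of reads to prediction than 96.7% of genes in replicate 1 and 95.4% in replicate 2. The libraries also differed in what each table says of them: KIT was level by reads (67.7 and 68.1 CPM) and higher in replicate 2 by TPM. The rank of KIT among the receptors was 7 by length-scaled reads, 14 when reads were scaled by the longest coding transcript, and 23 by TPM. Of the 251955 transcripts of the TPM table, 50288 had no match in the annotation used, and these carried 5.21% of TPM in replicate 1 and 5.24% in replicate 2. Whether any of them belongs to KIT was not tested. The absence of TPM for KIT-202 therefore does not show that the form without the 12 bases was missing, and the same holds for the share of 100% of KIT-201.

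Most receptors did not share this disagreement. Over the 40 detected receptors the median log2 ratio was 0.23 in both libraries, against 0.14 and 0.15 over 13380 genes, and 34 of the 40 lay within 2-fold in both libraries, beside 86.3% of those genes. Reads were over 4-fold above the prediction in both libraries for 2 receptors, CSF1R and NTRK2, beside 3.68% of genes, and over 4-fold below it for 0 of 40, beside 1.49%. NTRK2 had 87 reads in replicate 1 and 41 in replicate 2, but all its matched transcripts were listed at 0 TPM. CSF1R had 35 and 40 reads against 0 and 0.145 TPM. KIT passed 4-fold in replicate 1 only. At 2-fold the list also held KIT, RET (log2 ratios of 1.33 and 1.42) and EPHB6 (1.35 and 4.41, with TPM listed at 0 in replicate 2). Of these 5 receptors, KIT had the most reads.

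**Figure D2:**
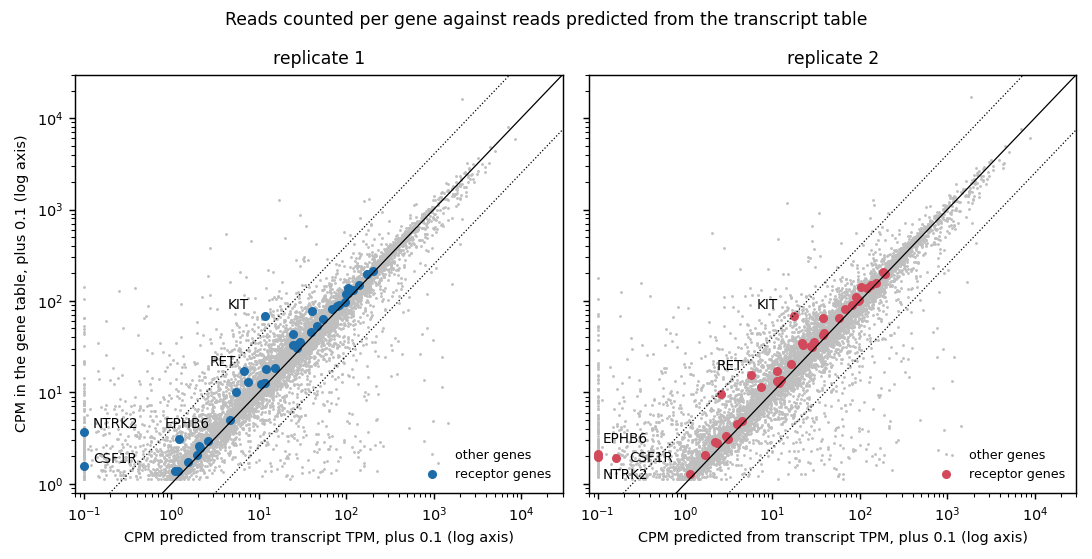
Reads per gene in CPM against CPM predicted from TPM, both plus 0.1 and on log axes, for replicate 1 (left) and replicate 2 (right), with the line of equality, dotted lines at 4-fold, receptor genes in colour and other genes in grey. KIT lies above the upper dotted line in replicate 1 and just below it in replicate 2, NTRK2 and CSF1R lie above it in both, and most receptors lie near equality.

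The receptors with known splice forms were read from the TPM table, whose depth per transcript is unknown, so shares are given without a test. The shares cover matched transcripts only, and whether unmatched transcripts belong to these genes was not tested. The log2 ratios of reads to prediction in replicates 1 and 2 were 0.93 and 0.78 for FGFR2. They were 0.43 and 0.56 for INSR, 0.41 and 0.44 for FGFR1, and 0.08 and 0.05 for FGFR3. The FGF receptors were mostly in the IIIc form, the form that is typical of mesenchymal cells. In FGFR1, transcripts with the IIIc exon held 92.3% of TPM in replicate 1 and 93.1% in replicate 2, and the IIIb transcript held 0.857% and 3.60%. In FGFR3, IIIc held 85.8% and 84.2% and IIIb 1.04% and 4.22%. FGFR2 had the most IIIb of the 3, at 20.5% and 19.9%, against 75.1% and 63.6% for IIIc, and its transcripts with neither or both exons held 4.41% and 16.5%. Of the insulin receptor transcripts, INSR-202 held 77.0% in replicate 1 and 60.9% in replicate 2. It lacks the 36-base exon, as does the receptor form with the higher affinity for IGF2. INSR-201, with the exon, held 20.0% and 35.5%, so the order of these transcripts was the same in both libraries and the shares were not. Each form is 1 transcript here, of 8954 bases for INSR-202 and 4721 for INSR-201. Their shares therefore do not measure the use of the 36-base exon alone.

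**Figure D3:**
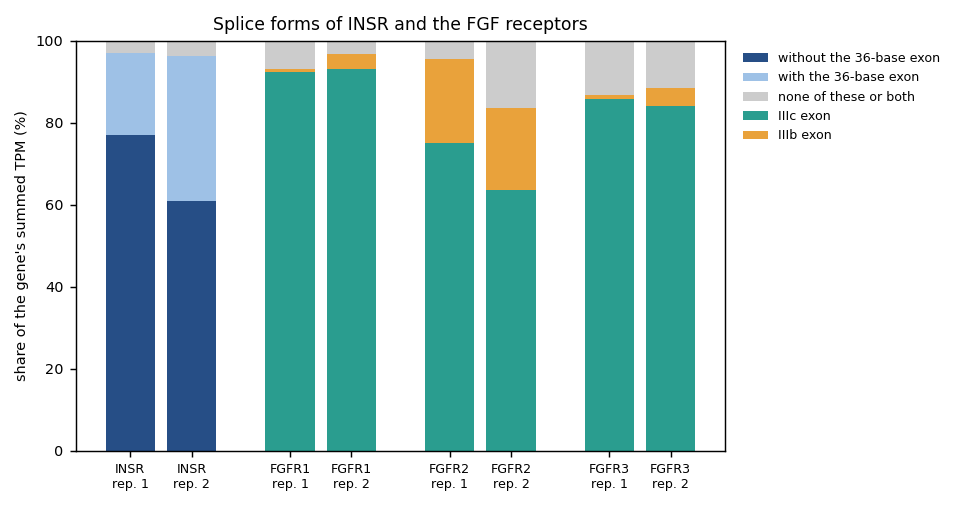
Share of the summed TPM of each gene's matched transcripts (percent, axis from 0) held by splice forms of INSR and of FGFR1, FGFR2 and FGFR3 in each library. The IIIc form takes between 63.6% and 93.1% of the FGF receptors. INSR-202, the transcript without the 36-base exon, has the larger share of INSR in both libraries, and it differs from INSR-201 in more than that exon.

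Among matched transcripts, the one with the highest TPM was the same in both libraries for most receptors. Among 31 receptors with more than 1 transcript and at least 1 TPM in both libraries, it differed for 6 (DDR1, ERBB2, FGFR2, NTRK3, STYK1 and TYRO3), beside 11.7% of 11774 genes. In DDR1 the order was exchanged: DDR1-225 stood at 13.2 TPM in replicate 1 and 5.92 TPM in replicate 2, and DDR1-226 at 5.71 and 13.4 TPM. In ERBB2, ERBB2-204 stood at 9.44 and 6.73 TPM and ERBB2-201 at 6.45 and 9.05 TPM. TYRO3-209, a retained-intron transcript, led in replicate 1 at 24.4 TPM (24.8 TPM in replicate 2), and the coding TYRO3-202 led in replicate 2 at 28.5 TPM (23.1 TPM in replicate 1). In NTRK3, the coding NTRK3-201 stood at 5.30 and 5.02 TPM, and NTRK3-210, annotated as a target of nonsense-mediated decay, at 3.93 and 5.34 TPM. In FGFR2 the leading transcripts were FGFR2-206 (5.08 and 3.48 TPM) and FGFR2-224 (3.73 and 4.23 TPM), and in STYK1 they were STYK1-201 (0.810 and 1.16 TPM) and STYK1-204 (0.595 and 1.44 TPM). By contrast, a coding transcript held most of the TPM in both libraries for EGFR (EGFR-201, 97.0% and 97.2%), EPHB4 (EPHB4-201, 91.7% and 93.6%), EPHA1 (EPHA1-201, 88.0% and 91.9%), ROR2 (ROR2-201, 84.0% and 89.0%) and FGFR3 (FGFR3-205, 79.2% and 76.5%). The leading transcripts of IGF1R (IGF1R-219, 74.7% and 70.7%), FGFR4 (FGFR4-201, 67.4% and 69.1%), ERBB3 (ERBB3-201, 66.1% and 72.3%), MERTK (MERTK-201, 65.7% and 78.5%), PTK7 (PTK7-202, 65.0% and 70.2%) and RYK (RYK-208, 58.6% and 66.2%) were coding too. FGFR1 was spread more widely, with 44.3% of TPM in each library in FGFR1-209. In FLT4 the transcript of highest TPM was a retained intron, FLT4-205, at 25.9% and 22.8%.

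Between the libraries the differences of the receptors were small, and KIT was level (log2 difference of 0.01, adjusted p = 0.920). MERTK, TYRO3, EPHB4, PTK7, FGFR4 and EPHA2 were higher in replicate 2, and FGFR3, FGFR2, EGFR, IGF1R, NTRK3 and NTRK2 were lower. These 12 were called among 44 receptors tested (27.3%), beside 13.1% of 15299 genes. The 6 higher calls stand beside 6.78% of genes and the 6 lower calls beside 6.35%. The test was edgeR's exact binomial test with Benjamini-Hochberg adjustment over all genes tested, and it compares 2 libraries with counting noise, not conditions. Differences are replicate 2 minus replicate 1 in log2(CPM + 1), which understates the change of low genes.

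The firmest differences were those of TYRO3 (0.18, adjusted p = 7.5e-06), NTRK3 (-0.33, adjusted p = 5.5e-05) and FGFR2 (-0.24, adjusted p = 7.5e-05). In CPM these were 121 and 138 for TYRO3, 43.9 and 34.8 for NTRK3, and 77.6 and 65.5 for FGFR2. The summed TPM of FGFR2 did not share its direction, with a difference of 0.04, and that of TYRO3 was nearly level at 64.7 and 64.8 TPM. MERTK (0.15, adjusted p = 0.00016), IGF1R (-0.25, adjusted p = 0.00072) and NTRK2 (-0.69, adjusted p = 0.0053) followed. In summed TPM, the difference of MERTK was 0.03 and that of NTRK3 was -0.14. MERTK and TYRO3, both TAM receptors, were higher in replicate 2, and AXL had a difference of 0.48 that missed the threshold (adjusted p = 0.093). The smallest called differences were those of FGFR4 (0.14, adjusted p = 0.011), EGFR (-0.13, adjusted p = 0.015), PTK7 (0.09, adjusted p = 0.016, and 0.02 in summed TPM), EPHB4 (0.09, adjusted p = 0.036) and FGFR3 (-0.09, adjusted p = 0.049). EPHA2 was a low gene near the threshold (0.48, adjusted p = 0.049). Of the 12, EPHB4, FGFR3 and EPHA2 lost their call under at least 1 other scaling or filter. The 32 receptors that were not called ranged from -0.41 to 0.48, and the median size of the difference over detected receptors, 0.10, was near that over all detected genes, 0.095.

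**Figure D4:**
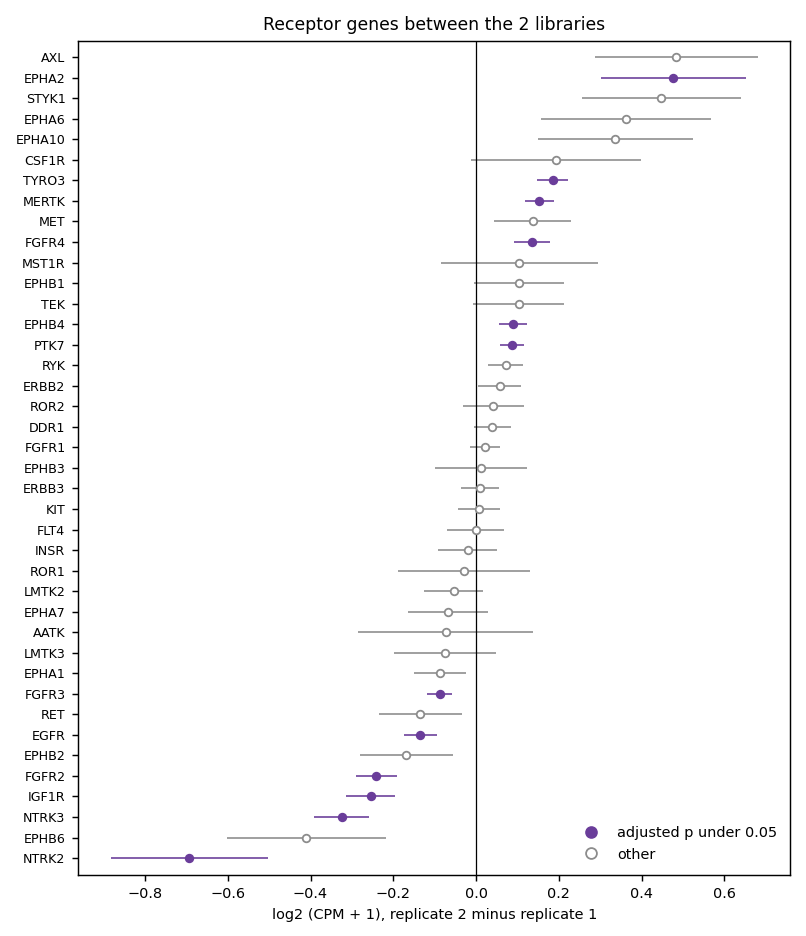
Difference between the libraries, replicate 2 minus replicate 1 in log2(CPM + 1), for the 40 detected receptors, with bars of 1 standard error from counting noise and filled points for adjusted p under 0.05. KIT lies at 0.01, the called receptors lie between -0.69 for NTRK2 and 0.48 for EPHA2, and the wide bars belong to receptors with few reads.

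Of the genes listed for the same pathways, 34 of 64 ligands, 6 of 9 co-receptors, 27 of 28 signal transducers and 17 of 19 inhibitors were detected, beside the 61.7% of protein-coding genes given above. KITLG, the ligand gene of KIT, had 4 reads in replicate 1 and 9 in replicate 2, or 0.166 and 0.405 CPM. HGF, the ligand of MET, and FGF1, TGFA, IGF2 and INS had no read in either library. GDNF, the ligand of RET through GFRA1, had 5 and 2 reads, and FLT3LG, the ligand of FLT3, had 1 and 0. The count of FLT3LG is unsafe, since its transcripts summed to 0.955 and 0.283 TPM, above what these reads correspond to. The other ligands of RET were detected at low levels, PSPN at 3.11 and 2.16 CPM, NRTN at 1.86 and 1.94 CPM and ARTN at 1.33 and 1.31 CPM. KIT and MET were thus detected with few or no reads for KITLG and HGF, and RET with several low ligands.

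Ligand genes of other receptors were detected, some together with the receptor and some without it. MDK, which encodes midkine, a ligand of ALK among others, was the highest ligand per length, at 224 and 242 CPM and a mean length-scaled level of 408, while ALK was not detected. IGF1 followed at 384 and 424 CPM (length-scaled 191), above its receptor IGF1R. PDGFA stood at 128 and 123 CPM (length-scaled 116), while both PDGF receptors were not detected. AGRN, which acts on MUSK through LRP4, stood at 291 and 311 CPM (length-scaled 108), while MUSK had no read. GAS6, the ligand of the TAM receptors, stood at 171 and 153 CPM beside MERTK and TYRO3. Of the FGFs listed, FGF4 at 15.2 and 22.7 CPM was the highest per length.

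**Figure D5:**
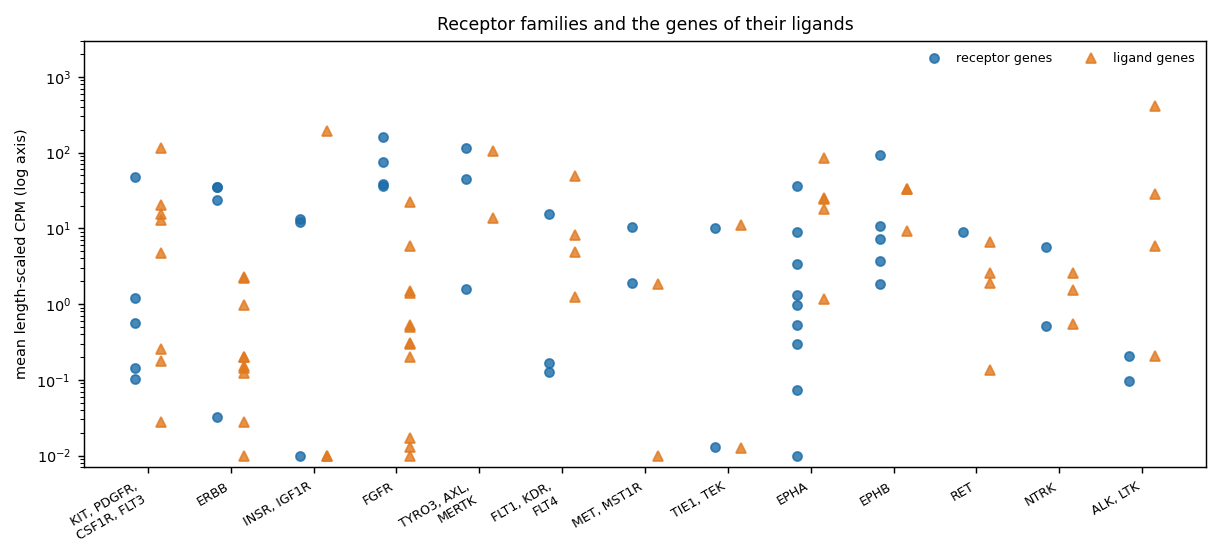
Mean length-scaled CPM (log axis) of receptor genes (circles) and the genes of their ligands (triangles) by receptor family, with points at 0.01 standing for genes with no read. All 4 FGF receptors lie above the listed FGFs. Among the ligands that lie above every receptor of their families are MDK, the highest at 408, IGF1, PDGFA, EFNA2, VEGFB and ANGPT1.

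Among co-receptors, GFRA1, the partner of RET, was the highest per length at 73.8 and 53.5 CPM, followed by LRP4 at 54.6 and 46.0 CPM, GFRA3 at 3.02 and 3.74 CPM and GFRA2 at 3.85 and 5.59 CPM. Among the highest transducers per length were the adaptor GRB2 (length-scaled 163), MAP2K2 (162) and HRAS (155). PIK3R2 was the only transducer that was not detected, with 4 and 2 reads, but its transcripts summed to 41.9 TPM in replicate 1, so its count is unsafe. Of the inhibitors, ERRFI1, which blocks EGFR, was the highest (length-scaled 230), followed by SPRED2 (76.1), LRIG1 (46.1) and SPRY4 (46.0). DUSP6, a phosphatase that dampens MAP kinase signalling, had 22 and 23 reads and was just below detection in replicate 1.

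Between the libraries, 7 ligand genes were called higher in replicate 2 and 1 lower, of 40 tested, beside 6.78% and 6.35% of all genes. FGF4 (0.55), EGF (0.49), PDGFB (0.46), VEGFB (0.31), IGF1 (0.14), MDK (0.11) and AGRN (0.09) were the higher ligands, and GAS6 (-0.16) was the lower, each a difference in log2(CPM + 1). Of 7 co-receptors tested, GFRA2 (0.44) was higher, and GFRA1 (-0.46) and LRP4 (-0.24) were lower. Of 27 transducers, 3 were higher, among them ARAF (0.19) and PIK3CB (0.15), and 3 were lower, among them GAB1 (-0.43) and MTOR (-0.15). Of 18 inhibitors, 0 were higher, and SPRED2 (-0.18), CBL (-0.20) and NF1 (-0.23) were lower. The ligand genes thus stood mostly higher in replicate 2 where they were called, and the called receptors were split evenly.

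Some receptor genes that lie near each other in the genome had different levels. EPHB6 (chr7:142855061-142871094) and EPHA1 (chr7:143390289-143408892) had mean length-scaled levels of 1.83 and 35.9. LTK (chr15:41503638-41513887) had 1 and 3 reads, and TYRO3 (chr15:41557675-41583586) 2926 and 3062. RYK (chr3:134065303-134250744) and EPHB1 (chr3:134597801-135260467) had length-scaled levels of 48.0 and 7.22. FLT3 and FLT1, neighbours on chromosome 13, were both below detection, and of CSF1R and PDGFRB, neighbours on chromosome 5, CSF1R alone passed the threshold in both libraries.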

How the data were processed

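Polyadenylated RNA of 2 libraries was analysed. Per the submitters' processing notes, Trim Galore 0.6.10, STAR 2.7.11a, DESeq2 and Salmon 1.10.2 were used on GRCh38; the counting step and annotation release are not given in the sources used here. The authors deposited TPM per transcript and, under the name CPM, a signal per gene that is reads divided by 1 factor per library. All values above 0 (100%, tolerance 1e-06) were whole multiples of 1 read, worth 1.02 in replicate 1 and 1.12 in replicate 2, so whole reads were recovered. In both deposited tables the header has no name for the identifier column, and the library names were read as those of the value columns. Genes and transcripts were matched by identifier to GENCODE 29 on GRCh38, which gave 579 transcripts of the receptors, 491 in the same version. KIT-201 was among those whose version differed. Sequences and coordinates are from that genome and annotation.

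The libraries were compared with binomTest of edgeR 4.0.16 on recovered reads, after filterByExpr and TMM, with Benjamini-Hochberg adjustment (threshold 0.05). The ratio of the tables was log2 of CPM over CPM predicted from TPM times transcript length, each plus 0.1, and a disagreement was over 4-fold in both libraries. Calculations were tested on simulated data. Over 17738 genes the libraries differed by a chi-square of 4.32 per degree of freedom, more than sampling noise, and they were counted as 2 samples. Such an excess does not show whether they came from separate cultures. Named were all detected, called or disagreeing receptors, those beside the threshold, the 4 highest and the called genes of each pathway list, all cell type markers and the leading transcripts at 5 TPM or more; other genes were chosen after their values were seen. Some items that this rule covers are not reported here. The receptors and lists were chosen with earlier results of these data known. Alternatives were other detection thresholds, lengths, folds and pseudocounts, TPM in place of reads, each library alone, no filter, and total reads, the deposited factors or DESeq2 1.42.0 size factors as scaling. No column of per-sample values was left unused.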

Additional observations from a re-analysis of the deposited data

How the results depend on the processing

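The rank of KIT was 14 with the length of the longest coding transcript and 23 with TPM, against 7, and 6 to 8 in single libraries. Disagreeing tables were found for 5 receptors at 2-fold, 4 with merged exon length and 3 in each library alone, against 2. The KIT ratio of 2.23 (mean log2) was 3.53 with merged exon length, and 1.94 to 2.52 in single libraries. Detected receptors ranged from 29 to 47 over thresholds of 0.1 to 5 CPM and detected pathway genes from 70 to 100. In single libraries they were 40 to 41 and 84 to 86. Called receptors numbered 9 to 11, all among the 12: EPHA2, EPHB4 and FGFR3 lost their call when every gene was tested, EPHA2 and EPHB4 with DESeq2 factors or total reads, and FGFR3 with the deposited factors. With TPM in place of reads, the difference of FGFR2 turned to 0.036, 18 moved by more than 1 standard error from counting and 21 by less. With a pseudocount of 0.1 this was so for 2 and 38. The cause was not tested. No paired analysis was possible because both libraries belong to the only group. Receptors that were not detected had at most 31 reads a library, and the depth per transcript is unknown.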
